A study of Rattus norvegicus with 6 samples.

Results

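The insulin-like growth factor (IGF) system was described in rat renal cortex through 10 genes. They were the binding proteins Igfbp1 to Igfbp7, the ligand Igf1, and the receptors Igf1r and Igf2r. Genes were found on the array by matching probe accessions to rat gene symbols, which gave 18 probes for the 10 genes among 61537 non-control probes and 15645 named genes. The genes were chosen by family membership and by the treated minus vehicle log2 difference of Igfbp1 on these same arrays. Differences between the groups are therefore given for all 10 genes as description, and no statement rests on their p-values in the fit across all probes.

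The treated group was 3 male Sprague-Dawley (Crl:CD(SD)) rats that received sulfone bis(p-chlorophenyl) at 250 mg/kg/day for 4 weeks. The vehicle group was 3 male rats of the same stock and supplier that received corn oil for 4 weeks. All 6 rats were 5 weeks old at purchase and were kept on the same basal diet. Total RNA of each renal cortex was labelled with Cy3 and measured on an Agilent rat array of its own, and the design text calls the 3 samples of a group biological replicates.

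Levels are log2 of the processed spot signal minus the 75th percentile of the array, so that 0 is the signal of that percentile. Each array had 66.1% to 68.2% of its probes well above background, controls left out, and array pairs correlated at 0.982 to 0.994 across tested probes, which are not independent replicates. Defining kidney transcripts fitted the label: Umod of the thick ascending limb and Lrp2 of the proximal tubule were well above background on all 6 arrays. Liver transcripts were well above background as well, at 19 of 19 tested hepatocyte markers, and their level differed widely between animals of both groups. Treated 1 shared slide 1 with all 3 vehicle arrays, whereas treated 2 and treated 3 were on slide 2. The within-slide difference given below is treated 1 minus the mean of the 3 vehicle arrays, which is also the value with slide as a block. In bulk tissue, fewer cells of a type and less RNA per cell cannot be told apart.

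Igf1 is a peptide growth factor made mostly by the liver under growth hormone, and also locally in the kidney. The receptor tyrosine kinase encoded by Igf1r carries its signal through insulin receptor substrates and phosphoinositide 3-kinase, while the Igf2r product takes up Igf2 and mannose-6-phosphate tagged enzymes and brings them to lysosomes. Binding proteins hold IGFs in plasma and tissue fluid and set how much reaches the receptors. Igfbp1 is the member under fast metabolic control: in liver its transcription is lowered by insulin and raised by glucocorticoids, fasting and cellular stress.

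The upstream sequence of Igfbp1 is shown because this gene had the largest difference of the 10 between the groups, and that of Igf1 because it holds the same 7 letters while its signal ran the other way. Both are the 250 bases before the annotated start, from the RefSeq promoter table of build GRCr8, written 5′ to 3′ on the strand of the gene. All 10 genes had 1 entry in that table. Capitals mark CAAAACA, the FOXO-type letters of insulin response elements, and TTATTTTG, the reverse complement of CAAAATAA.
Igfbp1, chr14:86261027-86261276, plus strand: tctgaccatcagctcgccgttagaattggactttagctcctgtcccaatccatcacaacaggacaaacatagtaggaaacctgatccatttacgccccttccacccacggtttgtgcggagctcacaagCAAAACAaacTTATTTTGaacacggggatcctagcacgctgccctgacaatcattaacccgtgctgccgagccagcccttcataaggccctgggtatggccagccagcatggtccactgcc
Igf1, chr7:24172282-24172531, plus strand: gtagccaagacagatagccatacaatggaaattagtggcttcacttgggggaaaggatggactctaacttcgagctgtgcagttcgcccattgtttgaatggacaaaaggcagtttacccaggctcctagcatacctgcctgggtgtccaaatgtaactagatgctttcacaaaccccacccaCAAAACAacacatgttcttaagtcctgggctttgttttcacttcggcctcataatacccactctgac
In Igfbp1 the 2 marked runs begin 121 and 111 bases before the start and are separated by 3 bases. CAAAACA or its reverse complement was found in 5.46% of the 33469 upstream windows of the table, and in 2 of the 10 IGF genes, Igfbp1 and Igf1. CAAAATAA, searched after the Igfbp1 sequence had been seen, was in 1.81% of windows and in Igfbp1 alone among the 10. Both were present in 55 windows, or 0.164%, and started within 20 bases of each other in 20 windows, or 0.0598%. The pair and its spacing limit were also chosen after the Igfbp1 sequence had been seen, so nothing about Igfbp1 is read from these shares. The related letters GTAAACA were in 3.21% of windows and in Igfbp6, and ATAAACA in 4.04% and in none of the 10. ACGTG, the core letters of hypoxia response elements, occurred in 16.6% of windows and in Igfbp2, Igfbp7, Igf1r and Igf2r, but not within these bases of Igfbp1. The glucocorticoid half-site letters TGTTCT were in 17.5% of windows and in Igfbp6 and Igf1, and TGATGCAA was in 0.693% and in none of the 10. Both strands were searched for each run, and a match or its absence describes only these letters in this window.

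Igfbp1 was the member with the largest difference and was higher in every treated rat. Its single probe (A_44_P422836) had processed signals of 3694, 4538 and 5521 fluorescence units in treated 1, 2 and 3, against 1681, 2041 and 1401 units in vehicle 1, 2 and 3. The log2 levels of Igfbp1 came to 1.75, 2.32 and 2.59 in treated cortex, against 0.73, 0.97 and 0.44 in vehicle cortex. The groups did not overlap, and treated 1 was the treated array nearest to the vehicle arrays. Means were 2.22 ± 0.43 in treated and 0.71 ± 0.27 in vehicle cortex (SD, n = 3 each), a log2 difference of 1.50 (SE 0.25), or 2.84-fold with a 95% interval of 1.87 to 4.31. Of the 12118 genes tested, 94 had a larger positive difference. Within slide 1 the difference was 1.03, while treated 2 and treated 3 stood 1.60 and 1.88 above the vehicle mean.

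**Figure D1:**
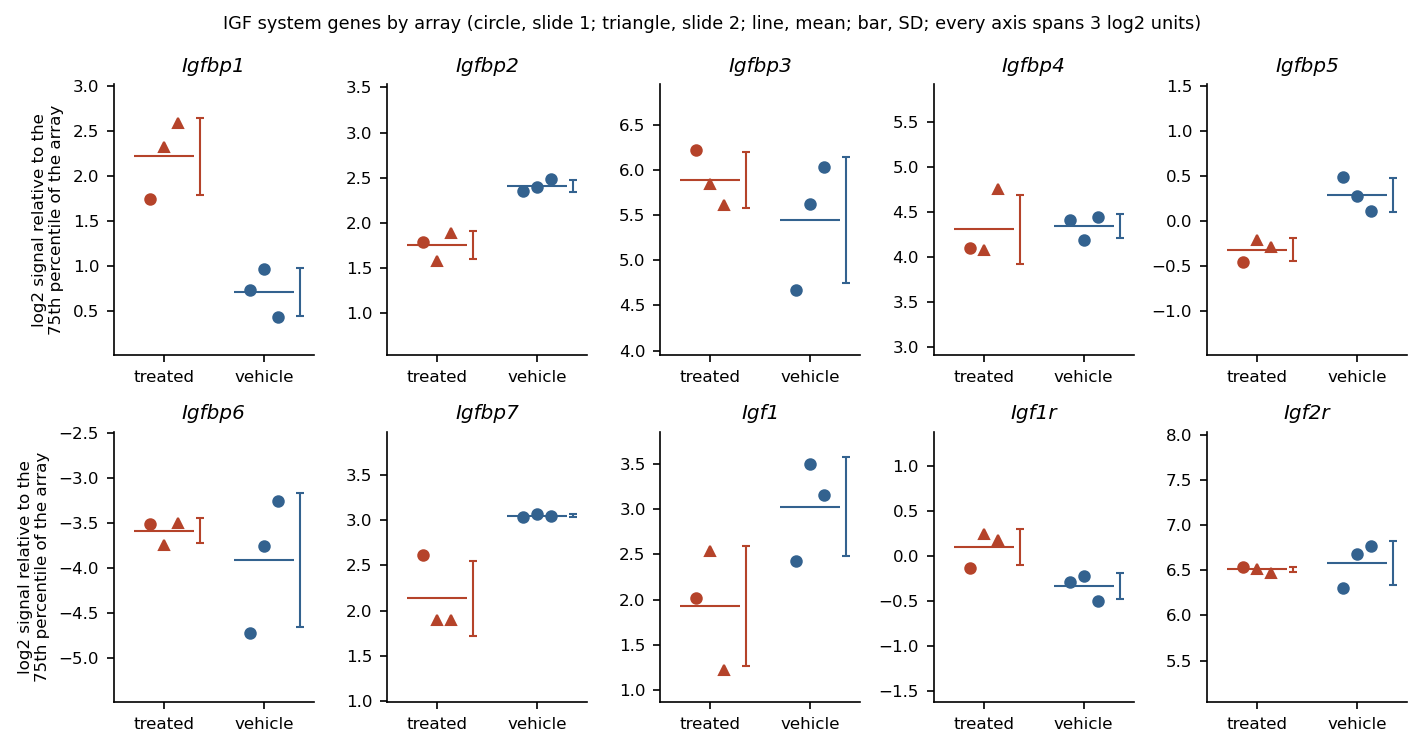
Each panel plots the log2 signal of 1 gene (brightest probe) on 6 arrays, with treated left of vehicle, lines for group means, bars for the SD (n = 3) and triangles for the 2 arrays on slide 2. Igfbp1 and Igf1r were higher on all treated arrays than on any vehicle array, and Igfbp2, Igfbp5 and Igfbp7 were lower on all of them.

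Igfbp1 is abundant in liver, so its signal is set beside the hepatocyte markers. The mean log2 signal of the 19 markers was -0.06, 0.49 and 1.75 in treated 1, 2 and 3, against 0.69, 0.10 and -0.83 in vehicle 1, 2 and 3. Treated 3 thus had the highest and vehicle 3 the lowest marker mean, and the same arrays held the highest and lowest Igfbp1. In treated 1 and treated 2 the marker mean was below that of vehicle 1, and Igfbp1 was 1.75 and 2.32, against 0.73 in vehicle 1. The median difference of the 19 markers was 0.55, and -0.32 within slide 1. The groups did not overlap for 2 of the 19, Apoh and Fga, both higher in treated cortex. The background over all genes was 30.7% in either direction and 13.9% for higher. Apoh, a phospholipid-binding plasma protein gene chosen after its values were seen, had 0.90, 0.06 and 0.73 in treated cortex, against -1.90, -1.83 and -0.66 in vehicle cortex. Its order differed from that of the marker mean, with vehicle 1 lowest. The albumin gene Alb was highest in treated 3 and vehicle 1 and lowest in vehicle 3, at 1.26, 2.12 and 3.92 in treated and 3.49, 2.43 and -0.28 in vehicle cortex. With the marker mean as a covariate the Igfbp1 difference was 1.25 (SE 0.19). The summed hepatocyte markers ranged from 5.74 to 6.93 in treated and from 5.30 to 6.10 in vehicle cortex on the log2 scale, and the part of liver transcripts in the Igfbp1 difference was not tested beyond these values.

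**Figure D2:**
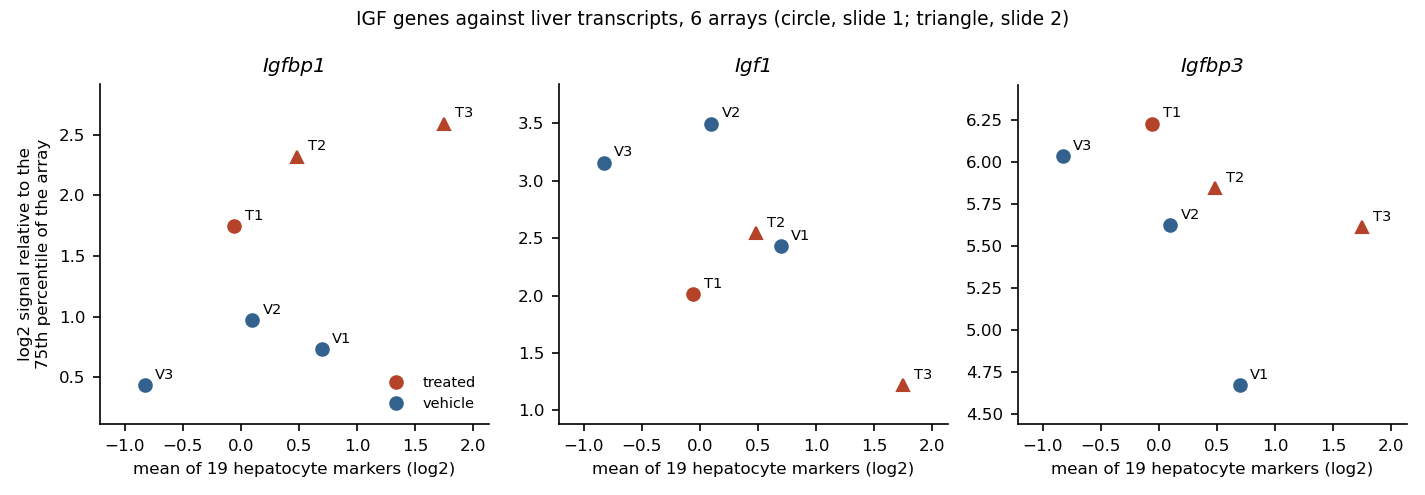
The mean log2 signal of 19 hepatocyte markers (x) is plotted against the log2 signal of Igfbp1, Igf1 and Igfbp3 (y) for each treated (T) and vehicle (V) array, with triangles for slide 2. Vehicle 1 lies to the right of treated 1 and treated 2 but below both for Igfbp1.

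Igfbp2, Igfbp5 and Igfbp7 were lower in treated cortex, without overlap between the groups. Igfbp2, a binding protein with an integrin-binding sequence that prefers Igf2, had log2 signals of 1.79, 1.58 and 1.89 in treated and 2.35, 2.40 and 2.48 in vehicle cortex. Its difference was -0.66 (SE 0.10), or 0.633-fold, and -0.62 within slide 1. The other 2 Igfbp2 probes differed by -0.45 and -0.49, and all 3 kept the groups apart. Igfbp2 was thus lower on every treated array, by every probe.

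Igfbp5 encodes the most conserved binding protein, which attaches to extracellular matrix. It had log2 signals of -0.46, -0.21 and -0.29 in treated and 0.48, 0.28 and 0.11 in vehicle cortex. The difference was -0.61 (SE 0.12), or 0.656-fold, and its other probe gave -0.58. Within slide 1 it was -0.75, so that treated 1 had the lowest value of the 6 arrays. Igfbp2 and Igfbp5 are neighbouring genes on chromosome 9 of assembly GRCr8.

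Igfbp7 is a matrix protein of vessel walls that binds IGFs weakly and insulin more strongly than the classical members do. Its log2 signals were 2.61, 1.89 and 1.90 in treated cortex, against 3.03, 3.07 and 3.05 in vehicle cortex. The vehicle arrays were nearly identical, with an SD of 0.02, and treated 1 lay between them and the other treated arrays. The difference was -0.92 (SE 0.21), or 0.530-fold, but -0.44 within slide 1, while treated 2 and treated 3 differed from the vehicle mean by -1.16 and -1.15. With slide as a random block the difference was -0.70 (SE 0.19). Of the 9 tested endothelial markers, 3 had groups that did not overlap, all higher in treated cortex, and the list median was 0.05. The background over all genes was 30.7% in either direction and 13.9% for higher. The summed endothelial markers were 6.33 to 6.58 in treated and 6.09 to 6.32 in vehicle cortex on the log2 scale. Plvap, among the 3 higher genes, was the brightest marker on every array and so weighed most in this sum. Esm1, an endothelial proteoglycan grouped with the IGFBP-related proteins by its cysteine-rich domain, had 1.88, 1.27 and 1.07 in treated and 2.68, 3.06 and 2.60 in vehicle cortex.

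**Figure D3:**
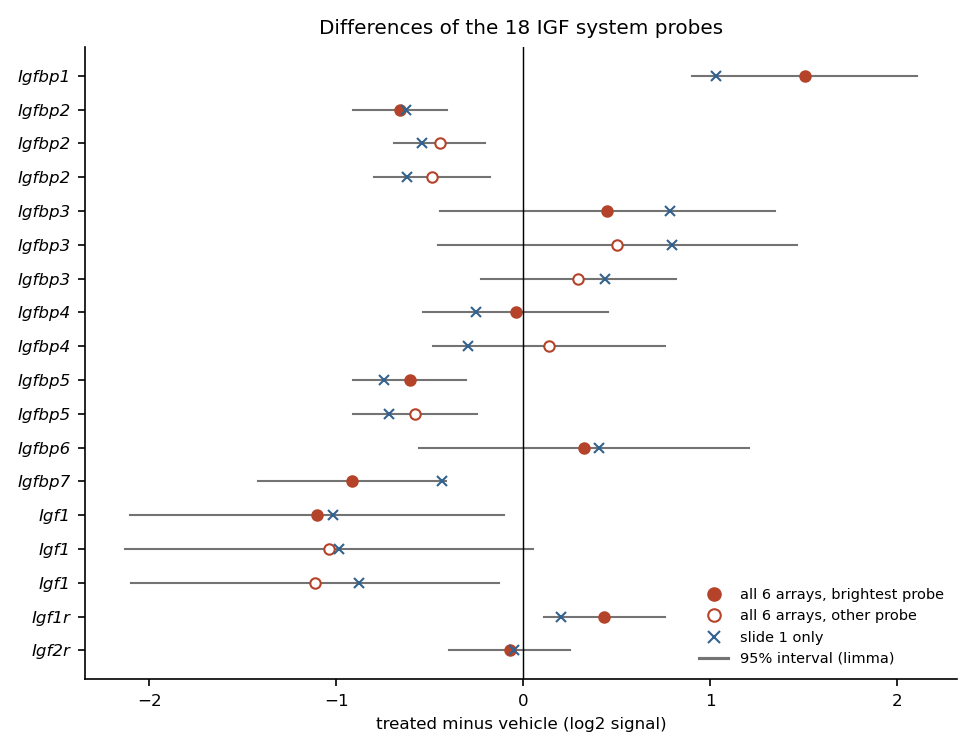
Treated minus vehicle log2 differences of the 18 probes are drawn as circles (filled for the brightest probe of a gene) with 95% intervals from limma, and crosses give the difference within slide 1. Probes of 1 gene lie close together, and the cross for Igfbp7 lies nearer to 0 than its circle while that for Igfbp3 lies farther from it.

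The main carrier of circulating IGFs, Igfbp3, differed mostly among the vehicle rats. Its log2 signals were 6.23, 5.84 and 5.61 in treated cortex, against 4.67, 5.62 and 6.03 in vehicle cortex, and the groups overlapped. Vehicle 1 stood apart at 4.67, and without it the difference of 0.45 (SE 0.37) became 0.06. The Igfbp3 difference was 0.75 without vehicle 3, 0.78 within slide 1 and 0.84 with the liver marker mean as a covariate. All 3 probes had vehicle 1 lowest and treated 1 highest, and they correlated at 0.981 to 0.997 over the 6 arrays. Igfbp3 is the neighbour of Igfbp1 on chromosome 14 of assembly GRCr8, yet vehicle 1 was the lowest array for Igfbp3 and not for Igfbp1.

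Igfbp6, which prefers Igf2, shared the low value of vehicle 1. It had -3.51, -3.74 and -3.50 in treated and -4.72, -3.75 and -3.26 in vehicle cortex, a log2 difference of 0.33 (SE 0.36) that was -0.08 without vehicle 1, 0.65 without vehicle 3 and 0.59 with the liver marker mean as a covariate. Dcn, which encodes the stromal proteoglycan decorin and was picked after its values were seen, had 2.80, 2.24 and 2.43 in treated and 0.55, 2.64 and 3.03 in vehicle cortex. Vehicle 1 was again the low array. The summed fibroblast, mesangial and smooth muscle markers were 4.63 to 5.11 in treated and 4.32 to 5.12 in vehicle cortex, lowest in vehicle 1. Among these markers, Col1a1, Col1a2 and Col3a1 were lowest in treated 3 and Pdgfrb in vehicle 2, while the others were lowest in vehicle 1. Whether stromal content contributed to Igfbp3 and Igfbp6 was not tested.

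Igfbp4, a soluble binding protein that is cut by the protease Pappa, was close to equal between the groups. Its log2 signals were 4.10, 4.07 and 4.75 in treated cortex, against 4.41, 4.19 and 4.44 in vehicle cortex, a difference of -0.04 (SE 0.20) with a 95% interval of -0.54 to 0.45. The second probe gave 0.14, so the sign depended on the probe, and treated 3 was the highest array on both. Without treated 3 the difference of the brighter probe was -0.26.

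Igf1, the only ligand among the 10 genes, was lower on average in treated cortex, with 1 overlap. Its brightest probe had log2 signals of 2.01, 2.54 and 1.22 in treated and 2.43, 3.50 and 3.16 in vehicle cortex. Treated 2 exceeded vehicle 1, and each group spanned more than 1 log2 unit. The difference was -1.10 (SE 0.41), or 0.466-fold with a 95% interval of 0.232 to 0.932, and -1.01 within slide 1. The other probes, both for another Igf1 transcript, gave -1.04 and -1.11 and correlated with each other and with the brightest at 0.982 to 0.995.

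Treated 3 and vehicle 1, the arrays of each group with the highest hepatocyte marker mean, had the lowest Igf1 of their groups. With the marker mean as a covariate the Igf1 difference was -0.74 (SE 0.37), and leaving out each array in turn gave -1.41 to -0.75. The value without treated 3 was -0.75, the smallest of these, so the size of the difference rested partly on that rat.

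Igf1r was higher in treated cortex by a small amount. It had log2 signals of -0.13, 0.25 and 0.18 in treated and -0.29, -0.22 and -0.49 in vehicle cortex, and the groups did not overlap. Treated 1 was the closest of the treated arrays to the vehicle arrays. The difference was 0.43 (SE 0.13), or 1.35-fold, but 0.20 within slide 1. Igf2r hardly differed: its log2 signals were 6.53, 6.52 and 6.47 in treated cortex, against 6.30, 6.68 and 6.77 in vehicle cortex. Its difference was -0.07 (SE 0.13), with a 95% interval of -0.40 to 0.25.

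Over the 10 genes, 4 had a positive and 6 a negative difference, with a median of -0.06 against -0.01 over all 12118 tested genes. The groups did not overlap for 5 members, 2 higher and 3 lower, where the background over all tested genes was 30.7% (13.9% higher and 16.8% lower). None of the 10 had a limma p under 0.05 after Benjamini-Hochberg adjustment over 40643 tested probes, where the background was 0.0165% of genes and 0.00738% of probes. An unadjusted p under 0.05 was reached by 6 members, 2 higher and 4 lower, where the background was 21.4% (10.1% higher and 11.3% lower). Nothing is read from these counts, because the set was chosen with this contrast known. All 18 probes were well above background on all 6 arrays, so no value is a bound and the filter on dim probes removed no member.

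Leaving out treated 1 changed these counts. The remaining 5 arrays gave 4307 probes with an adjusted p under 0.05, against 3 with all arrays, and 4 of the 10 members among them. These were Igfbp1 (1.74), Igfbp2 (-0.68), Igfbp7 (-1.15) and Igf1r (0.55). Without treated 1 every treated array is on slide 2 and every vehicle array on slide 1. Slide and treatment therefore cannot be told apart in that fit. The share of all genes called in it is not given here, so nothing is read from the 4 members. Without treated 2 or without vehicle 2 no probe was called.

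Within the family, several members followed each other across rats. Igf1r correlated with Igfbp1 at 0.96 over the 6 arrays and at 0.90 after group means were removed, and Igfbp7 correlated with Igfbp1 at -0.96 and -0.80. Igfbp3 and Igfbp6 correlated at 0.92 and 0.91, and Igfbp6 and Igf2r at 0.78 and 0.96, and vehicle 1 was the lowest array for all 3. Other pairs did not keep their correlation once group means were removed. Igfbp1 and Igfbp2 went from -0.90 to -0.04, and Igfbp2 and Igfbp5 from 0.81 to -0.58. All these correlations are descriptions over 6 arrays that share 2 groups and 2 slides.

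Outside the 10 genes, the pattern most like Igfbp1 over the 6 arrays belonged to Pik3ca, the catalytic subunit of phosphoinositide 3-kinase, with a Pearson correlation of 0.998 among 11672 genes well above background on all arrays. Pik3ca had 1.89, 2.11 and 2.15 in treated and 1.60, 1.65 and 1.49 in vehicle cortex, a difference of 0.48 (SE 0.10), which is much smaller than that of Igfbp1. Next came the mitochondrial trafficking adaptor Trak1, Sfxn4, the collagen gene Col8a1 and Polr3g, at 0.993 to 0.997. Polr3g, a subunit of RNA polymerase III, had the largest difference of these, 1.20. The lowest correlations were -0.999 for the microtubule end-binding gene Mapre1, -0.997 for the mediator subunit Med19 and -0.994 for Nlgn3. All are descriptions over the same 6 arrays, which share groups and slides.

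Among 153 tested genes around the IGF system, 0 passed the limma test adjusted over all probes in either direction, while 33 were higher and 11 lower at an unadjusted p under 0.05. That is 28.8% of them, against 21.4% of all tested genes (10.1% higher and 11.3% lower). Without treated 1, where slide and treatment cannot be told apart, 26 passed the adjusted test. The share of all genes that passed in that fit is not given here, so nothing is read from this count. The lists were drawn up with earlier results of these arrays known. The counts by list follow, with differences as log2 values.

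The growth hormone axis, which drives Igf1, showed small differences. Of 13 genes, 1 was higher and 2 lower at an unadjusted p under 0.05, and the median was -0.10. Ghr, the growth hormone receptor, had 1.77, 1.96 and 1.90 in treated and 1.62, 1.72 and 1.64 in vehicle cortex, a difference of 0.21 (SE 0.08). Ghrh differed by -0.32 (SE 0.12) and Gh1 by -0.39 (SE 0.15). Both were dim, with means of -4.14 and -3.94 in treated and -3.82 and -3.55 in vehicle cortex. Within slide 1 they differed by -0.14 and -0.09, and the Gh1 groups overlapped. Igf2 and Igfals, the acid-labile subunit that joins Igfbp3 in the circulating ternary complex, differed by 0.20 (SE 0.12) and 0.35 (SE 0.26). No limma adjusted p in this list was under 0.208.

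Of 14 proteases and inhibitors that act on binding proteins, 3 were higher and 2 lower at an unadjusted p under 0.05. Stc1, which encodes stanniocalcin, a calcium and phosphate hormone, had -1.22, -1.25 and -1.08 in treated and -0.35, -0.29 and -0.84 in vehicle cortex. The difference was -0.69 (SE 0.16, limma adjusted p = 0.132). The serine protease gene Htra1, whose product carries an IGFBP-like domain, differed by -0.28 (SE 0.09).

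Signalling genes downstream of the receptors mostly differed little. Of 36 tested, 3 were higher and 2 lower at an unadjusted p under 0.05, with a median of 0.03. Pik3r3, a regulatory subunit of phosphoinositide 3-kinase, had -3.54, -3.49 and -3.46 in treated and -2.78, -2.88 and -3.01 in vehicle cortex, a difference of -0.61 (SE 0.09) and -0.65 within slide 1 (limma adjusted p = 0.081). Foxo3, a transcription factor that insulin and IGF signalling keep out of the nucleus, was 0.69 higher (SE 0.16). For comparison, Foxo1 differed by 0.04 and Irs1 by 0.06.

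Of 11 IGFBP-related proteins, 1 was higher and 2 lower at an unadjusted p under 0.05, led by Esm1 at -1.37 (SE 0.24, limma adjusted p = 0.096). The third named member, Htra4, was 1.19 higher (SE 0.42), with treated 2 at -3.14 and the other arrays at -5.37 to -4.57.

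Igfbp1 is known as a target of FOXO factors and of the glucocorticoid receptor in liver, and lists of other targets of each were examined. Of 17 FOXO target genes, 8 were higher and 0 lower at an unadjusted p under 0.05. For all tested genes the shares were 10.1% higher and 11.3% lower. The median of the FOXO list was 0.46, and 0.38 within slide 1. Cited2, a transcriptional co-regulator, had 4.41, 4.25 and 4.43 in treated and 3.69, 3.76 and 3.67 in vehicle cortex, a difference of 0.66 (SE 0.08, limma adjusted p = 0.064). The muscle atrophy ubiquitin ligase gene Fbxo32 was 0.75 higher (SE 0.11), and G6pc1, which releases glucose, 0.71 higher (SE 0.17). Of 15 glucocorticoid responsive genes, 4 were higher and 0 lower, with a median of 0.43. The receptor chaperone gene Fkbp5, which had the smallest p of the list, differed by 1.96 (SE 0.27). Zbtb16 differed most among these genes, by 3.60 (SE 0.52), with 1 vehicle array not well above background, and Klf9 by 0.37 (SE 0.07). The FOXO and glucocorticoid lists are not separate, since Pdk4 is in both. The part of either regulator in the Igfbp1 difference was not tested.

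Hypoxia and amino acid stress can also raise Igfbp1 in liver cells, and lists for both responses were examined in the same way. Of 17 hypoxia response genes, 4 were higher and 2 lower at an unadjusted p under 0.05, with a median of -0.10. That is 35.3% of the list, against 21.4% of all tested genes. Pfkfb4, which sets glycolytic flux, was 0.86 higher (SE 0.20), the mitophagy gene Bnip3 was 0.38 higher (SE 0.10), and Bhlhe40 differed by -0.82 (SE 0.30). Of 17 ATF4 and integrated stress response genes, 2 were higher and 2 lower (23.5%), with a median of -0.14. Nupr1, a stress-induced nuclear protein, had 1.22, 0.72 and 1.36 in treated and -0.25, -0.02 and 0.40 in vehicle cortex. Cebpb was 0.89 higher (SE 0.25), and Psat1, of serine synthesis, differed by -0.25 (SE 0.09). The part of hypoxia or amino acid stress in the Igfbp1 difference was not tested. Of 20 PPARA target genes, 7 were higher and 0 lower, with a median of 0.16, and Ppara itself and the lipid droplet gene Plin2 differed by 1.03 (SE 0.08) and 1.16 (SE 0.20). The smallest limma adjusted p over all these lists was 0.057, for Ppara. The summed signal of 7 adipocyte markers, on the log2 scale, was 3.15 to 3.28 in treated and 2.46 to 2.70 in vehicle cortex. Pnpla2 was the brightest of them on every array and so weighed most in this sum. The groups did not overlap for 4 of the 7, all higher in treated cortex, where the background was 13.9% higher. They overlapped for the rest, Adipoq among them. The part of adipocyte transcripts in the PPARA values was not tested.

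**Figure D4:**
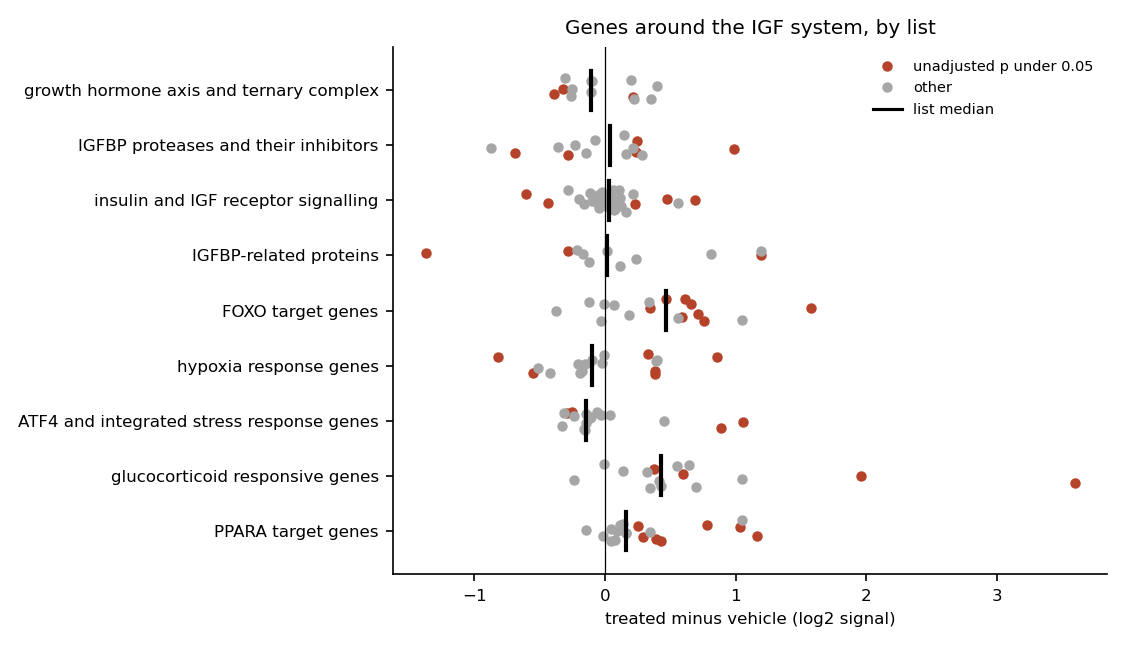
Each point is 1 gene of a list, at its treated minus vehicle log2 difference, red where the unadjusted limma p was under 0.05, with black lines at list medians. FOXO target and glucocorticoid responsive genes have medians of 0.46 and 0.43, while those of the growth hormone, protease, signalling and related-protein lists lie between -0.10 and 0.04.

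The 19 processing alternatives left the sign of the difference unchanged for Igfbp1, Igfbp2, Igfbp3, Igfbp5, Igfbp7, Igf1 and Igf1r. Igfbp1 ranged from 1.03 with slide as a block to 1.74 without treated 1, and Igfbp2 from -0.73 to -0.53. Igfbp4, Igfbp6 and Igf2r changed sign in 4, 1 and 2 of the alternatives, and each differed by less than its standard error with all arrays. The scaling alternatives, quantile normalization and median centring, gave Igfbp1 differences of 1.49 and 1.54.

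**Figure D5:**
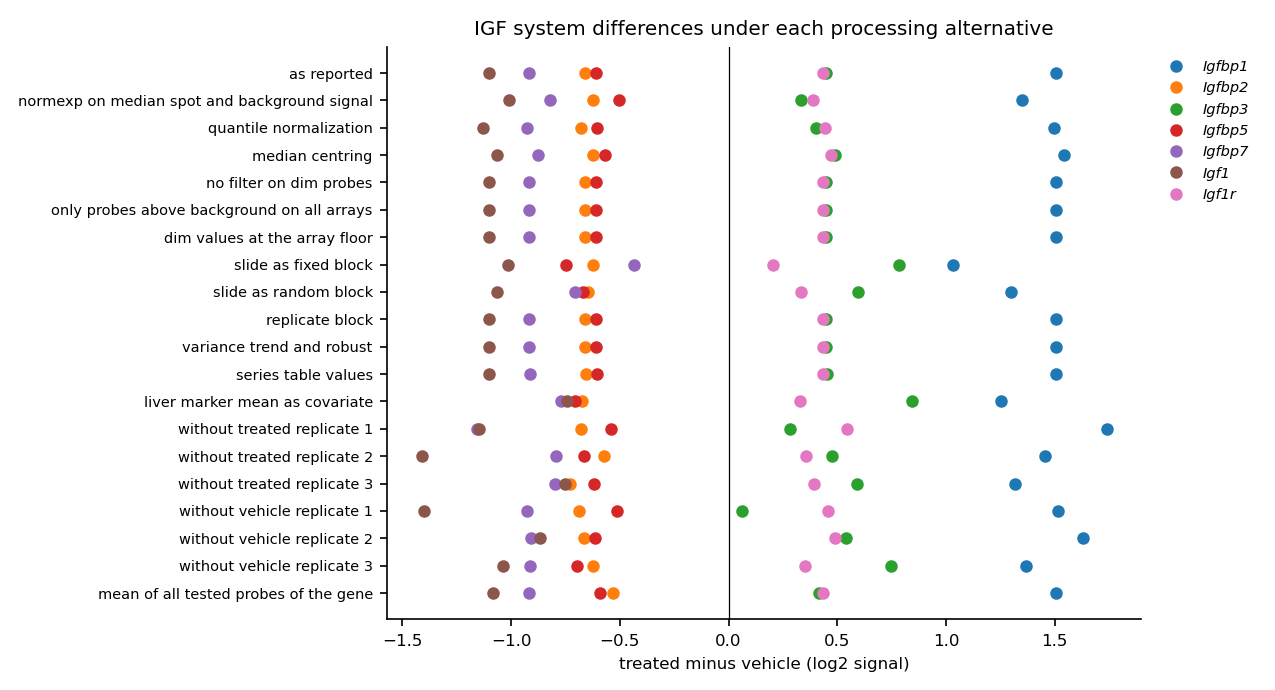
Treated minus vehicle log2 differences of 7 IGF genes (colours) are plotted for the values as reported (top row) and for each of 19 alternatives. Every gene stays on its side of 0, with Igfbp1 between 1.03 and 1.74 and Igfbp3 nearest to 0, at 0.06 without vehicle 1.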

How the data were processed

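Per the labels' protocols, cortex RNA was amplified, labelled with Cy3 and hybridised to 1-colour Agilent arrays. Per the file headers, the authors' intensity values come from Agilent's Feature Extraction software, version 10.7.1.1 (10.7 per the submitters' processing notes), after background subtraction. The deposited series table holds linear intensity values of the same arrays. Compared with the scanner values, it matched them divided by the 75th percentile, with column medians of 0.109, 0.105 and 0.105 in treated and 0.110, 0.108 and 0.109 in vehicle arrays. Its own scaling is not given in the sources used here, and it served as an alternative.

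Processed signals were put on the log2 scale, and the 75th percentile of the 61537 non-control probes was subtracted in each array. Saturation was seen at 0 probes, and 11 with an outlier flag were left out. Probes well above background on all 3 arrays of a group were tested (40643). Accessions were matched to RefSeq symbols of assembly GRCr8: 28206 probes had 1 symbol, 33331 none and 0 several. A gene was represented by its brightest probe. The two-sided p-values came from eBayes in limma (version 3.58.1, under R 4.3.3), were adjusted by Benjamini-Hochberg over all tested probes, and were called under 0.05. The fit was run on simulated data with independent noise for each probe and no slide effect, so it could not check the slide layout. The number of arrays, 3 a group, limits the precision.

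Members and lists were chosen with earlier results of these data known. Named genes were all members, the 3 genes of each list with the smallest unadjusted p, and the 6 highest and 3 lowest correlations with Igfbp1 over 6 arrays. Among marker genes the rule named Alb, Ttr, Umod and Lrp2. Igf2, Igfals, Foxo1, Irs1, Dcn, Apoh, Fga, Plvap, Pnpla2, Cidec, Adipoq, Col1a1, Col1a2, Col3a1, Pdgfrb and Pdk4 were added after values were seen. Some genes that the rule names are not reported here. Alternatives were background correction (normexp, offset 50, on the median in place of the planned mean spot signal), normalization, filter, floor, slide, replicate number, variance model, series table, liver markers, probe averaging and each array left out.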

Additional observations from a re-analysis of the deposited data

How the results depend on the processing

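The number of probes called, 3 as reported, was 136 with normexp, 17 with median centring, 1 when dim probes were kept, 0 when a probe had to be above background on every array, 0 with dim values at the floor, 1 with slide as a fixed block and 156 with a variance trend and robust fit. Leaving out each array gave 0 to 4307 calls and 1.32 to 1.74 for the Igfbp1 difference. It gave 5 to 7 members whose groups did not overlap (5 as reported), and 30 to 54 pathway genes with an unadjusted p under 0.05 (44 as reported). Groups of 2 and 3 arrays separate more easily than 3 and 3, and the shares over all genes in these fits are not given here. Nothing is therefore read from these counts of members and pathway genes. With slide as a fixed block the Igfbp1 difference was 1.03, which is treated 1 against the vehicle arrays. The cause was not tested for the other changes. Replicate numbers did not pair the rats: deviations of same-numbered arrays correlated at -0.21, 0.01 and -0.16. With the replicate block 0 probes were called, and the Igfbp1 difference stayed 1.50. Of the pathway genes 0 passed as reported, 2 with normexp, 1 with median centring, 2 with the variance trend and 26 without treated 1. No member passed the adjusted threshold under any alternative other than leaving out treated 1. With 3 arrays a group, and 2 of the treated arrays alone on slide 2, the within-slide values rest on treated 1 alone.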

Other observations

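Igf1 and Igfbp1 are both known for high expression in liver, and their signals are set here beside the mean of the hepatocyte markers. In the treated rats Igfbp1 was 1.75, 2.32 and 2.59 and Igf1 was 2.01, 2.54 and 1.22 in treated 1, 2 and 3, where the hepatocyte marker mean was -0.06, 0.49 and 1.75. In the vehicle rats Igfbp1 was 0.73, 0.97 and 0.44 and Igf1 was 2.43, 3.50 and 3.16, where the marker mean was 0.69, 0.10 and -0.83. The thyroxine carrier gene Ttr was highest in treated 3 and vehicle 1 and lowest in vehicle 3, at 0.76, 1.55 and 3.70 in treated and 3.12, 1.97 and -0.90 in vehicle cortex. The source of the Igf1 differences between rats was not tested.

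Among the other marker lists, 4 of 7 tested adipocyte markers had groups that did not overlap, all higher in treated cortex, where the background over all tested genes was 13.9% higher. They included Pnpla2, the triglyceride lipase, at 2.42, 2.61 and 2.66 in treated and 1.91, 1.74 and 1.96 in vehicle cortex, and Cidec, a lipid droplet gene, at 0.66, -0.08 and 0.40 in treated and -2.83, -1.42 and -0.36 in vehicle cortex. Adipoq, the adipocyte hormone, was -0.78, 0.07 and -0.20 in treated and -0.32, -0.11 and -0.23 in vehicle cortex, with groups that overlapped.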
